A study of Homo sapiens with 8 samples.

Results

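Transcripts of 9 genes of MHC class I antigen presentation, HLA-B, HLA-C, HLA-E, HLA-F, B2M, TAP1, TAP2, TAPBP and PSMB8, were followed over 8 one-colour Agilent gene expression arrays. They were taken by name: every probe that is no control spot and whose gene name on the array is one of the 9 entered, which gave 17 of 50599 probes and 9 of 36337 gene names. Of the 17 probes, 13 were well above background on all 8 arrays by the scanner software's own flag, and each of the 9 genes had at least 1 such probe.

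MHC class I molecules show peptides from inside the cell to cytotoxic T cells. A heavy chain, encoded by the HLA genes, pairs with the invariant light chain B2M. Peptides cut by the proteasome, in which PSMB8 is a catalytic subunit of the interferon-inducible form, are pumped into the endoplasmic reticulum by the TAP1 and TAP2 transporter and loaded onto the heavy chain with the help of TAPBP, also called tapasin. Nearly all nucleated cells carry these molecules, interferons raise them, and many carcinomas carry fewer of them than the tissue they arose in.

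Cells of 2 human lines were compared, each 48 h after transfection. Nthy-ori 3-1 (ORI in the labels) is an immortalized line from thyroid follicular epithelium, and it received pre-miR-375, a synthetic precursor of the miRNA, at 5 nM per the labels. TT is a line from a medullary thyroid carcinoma, a tumour of calcitonin-secreting C cells, and it received antagomiR-375, an antisense inhibitor, at 20 nM per the labels. The paper's methods give higher concentrations for both. Each treatment has control cells of the same line, which the labels call CTL and the paper's methods describe as given control oligonucleotides. There are 2 arrays per group, and a pair of arrays with the same replicate number lay on the same slide. Each slide held a single line, and the lines and reagents differ between the 2 experiments, so that each line stands for 1 culture model only. The paper's methods call the replicates biological, while the labels do not say what separates them, so the p-values measure the spread between these samples. By the labels, RNA integrity was lower (RIN 8) in both TT control samples than in the remaining 6 (RIN 9).

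The number of spots well above background lay between 32071 and 37340 of 58717 per array, control spots left out, and 0 spots were saturated. The number of arrays limits the precision: an exact two-sided permutation test of 2 arrays against 2 cannot give a p below 0.333, so tests rest on limma, which pools the spread over all probes. The labelled origins were compared with marker genes. All 7 measured C cell markers, among them CALCA, the calcitonin gene, were well above background on the 4 TT arrays and called higher in TT than in Nthy-ori 3-1 control cells (limma, adjusted p up to 0.05). Of the thyroid follicular markers, PAX8 and FOXE1 were well above background in Nthy-ori 3-1 cells and called lower in TT. Against the labelled origin, TG, the thyroglobulin gene, was called higher in TT (4.72 and 5.02 in Nthy-ori 3-1 and 9.13 on both TT control arrays), NKX2-1 was well above background on the TT arrays alone, and TSHR was so on none of the 8.

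The oligonucleotides of both experiments centre on miR-375, and the mature strand is shown because its seed, the stretch that pairs with target transcripts, defines what was added or blocked. It lies at chr2:219001648-219001669 (RefSeq, GRCh38.p14, minus strand), and bases 2 to 8, the seed, are in capitals.

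hsa-miR-375-3p: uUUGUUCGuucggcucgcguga

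The 9 genes are known to share promoter elements, so the stretches upstream of the start sites are shown for the members that the results turn on. RefSeq promoter windows (250 bases before to 50 after the start, GRCh38.p14) were matched by symbol for 8 of the 9 genes, with 2 windows each for TAP1 and PSMB8. Capitals mark 3 kinds of letters, searched on both strands: GAAANNGAAA, the repeat that interferon-regulated factors recognise, TGACG, the core of a cAMP response element, and CCAAT. The 200 bases before the start of HLA-B (chr6:31357180-31357379, minus strand), HLA-C (chr6:31272093-31272292, minus strand), HLA-F (chr6:29723234-29723433, plus strand), B2M (chr15:44711317-44711516, plus strand) and the upstream start of TAP1 (chr6:32853705-32853904, minus strand) read as follows, each in the direction of its gene. The last line gives the 100 bases before TAPBP (chr6:33314079-33314178, minus strand).

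HLA-B: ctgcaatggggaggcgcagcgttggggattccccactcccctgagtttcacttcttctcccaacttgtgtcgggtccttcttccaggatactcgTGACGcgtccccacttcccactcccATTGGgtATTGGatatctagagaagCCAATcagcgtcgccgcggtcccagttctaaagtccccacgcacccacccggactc

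HLA-C: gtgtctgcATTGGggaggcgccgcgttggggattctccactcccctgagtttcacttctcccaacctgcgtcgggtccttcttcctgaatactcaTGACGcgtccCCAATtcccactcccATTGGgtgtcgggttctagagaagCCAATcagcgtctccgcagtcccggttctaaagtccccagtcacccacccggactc

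HLA-F: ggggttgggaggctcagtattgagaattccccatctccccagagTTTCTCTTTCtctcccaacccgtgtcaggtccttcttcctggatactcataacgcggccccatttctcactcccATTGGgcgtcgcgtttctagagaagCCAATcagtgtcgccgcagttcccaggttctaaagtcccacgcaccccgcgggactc

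B2M: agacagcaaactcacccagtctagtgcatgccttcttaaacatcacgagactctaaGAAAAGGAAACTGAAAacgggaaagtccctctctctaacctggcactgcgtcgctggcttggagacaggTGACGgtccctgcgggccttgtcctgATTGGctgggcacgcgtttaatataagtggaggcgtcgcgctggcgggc

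TAP1: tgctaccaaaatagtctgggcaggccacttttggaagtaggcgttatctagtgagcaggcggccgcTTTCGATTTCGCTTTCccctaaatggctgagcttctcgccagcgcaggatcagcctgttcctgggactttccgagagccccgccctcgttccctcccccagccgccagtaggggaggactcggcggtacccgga

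TAPBP: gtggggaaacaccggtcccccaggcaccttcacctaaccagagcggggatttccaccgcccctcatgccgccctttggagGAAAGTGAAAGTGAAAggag

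GAAANNGAAA occurred in a window of 6 of the 8 genes with a window, and in 3.57% of all 35116 windows. It began at -156, counted from the start, in HLA-F, at -144 and -138 in B2M, at -134 and -128 in TAP1, at -58 in TAP2 and at -20 and -14 in TAPBP, the neighbouring matches in B2M, TAP1 and TAPBP overlapping each other. In PSMB8 a match spans the start of its second window, from -4 to 6. These exact letters were not in the windows of HLA-B and HLA-C, and looser forms of the repeat were not searched for. TGACG occurred in a window of 5 genes (24.6% of all windows), at -106 in HLA-B, -105 in HLA-C, -75 in B2M, -35 in TAP2 and -69 in PSMB8. CCAAT occurred in a window of 5 genes as well, HLA-B, HLA-C, HLA-F, B2M and TAP1 (34.6% of all windows; the TAP1 match lies before the stretch printed), with a copy from -56 to -52 in both HLA-B and HLA-C. A match of letters is a description of the sequence and no evidence of binding.

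Heavy chain genes are near-identical in long stretches, so what a probe reads has to be stated with its value. The HLA-B probes A_33_P3379947 (chr6:31321653-31321712, hg19, minus strand) and A_33_P3424800 (chr6:31321663-31321722) overlap by 50 bases with 1 mismatch. The HLA-C probe A_33_P3424803 lies on the same stretch (chr6:31321644-31321703), sharing 51 bases with the first, with 1 mismatch, and 41 with the second, with none. The other HLA-C probe, A_33_P3330109, lies elsewhere (chr6:31236617-31236676, minus strand). Values of A_33_P3424803 may therefore include HLA-B transcripts. The 30 bases around the differing base are shown with that base in capitals, the substitution being T15G, counted from the 5′ end of the stretch and with the first line as reference.

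HLA-B A_33_P3379947: gtcaattcctggaaTttgagagagcaaata

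HLA-B A_33_P3424800: gtcaattcctggaaGttgagagagcaaata

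HLA-C A_33_P3424803: gtcaattcctggaaGttgagagagcaaata

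Further hg19 positions are chr6:30460729-30460788 for HLA-E, chr15:45007773-45007832 for B2M, chr6:32813210-32813269 for TAP1, chr6:32793222-32793281 for TAP2 and chr6:33267718-33267777 for the brightest TAPBP probe. The PSMB8 probe spans chr6:32810023-32810490, more than its 60 bases, and so crosses an intron. So does the TAPBP probe A_23_P259580, which spans chr6:33273141-33281029. A gene annotation of hg19 was not used here, and the exon or untranslated part under the other probes is not given.

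In each pair of arrays of Nthy-ori 3-1 cells, all 9 genes were measured higher with pre-miR-375 than with the control. Log2 differences of the 15 probes that were well above background on the 4 arrays ran from 0.28 for an HLA-F probe to 1.05 for TAP1, with a median of 0.56, against a median of 0.03 over all 24192 such probes. All 15 were higher in both pairs, as were 38.7% of all probes, and none was lower in both, against 33.9%. An unadjusted p under 0.05 in the upward direction was reached by 10 of the 15, against 10.2% of all probes. These 10 probes, some of them overlapping, belong to 6 genes, and by the brightest probe alone 5 of the 9 genes reached it. Over all 17 member probes and either direction, it was reached by 11. That count was 2 with 75th percentile scaling, 7 without the replicate block and 14 with normexp background correction. Both treated arrays lay above both control arrays for 11 of the 15, against 19.4% of all probes. After Benjamini-Hochberg adjustment over 50594 probes, limma called 0 probes of any gene (0% of all), with 7257 at an unadjusted p under 0.05. The members' adjusted p did not go below 0.318, so none of these differences passed the test. In extracts of whole cultures, more RNA per cell and more cells with the RNA cannot be told apart.

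**Figure D1:**
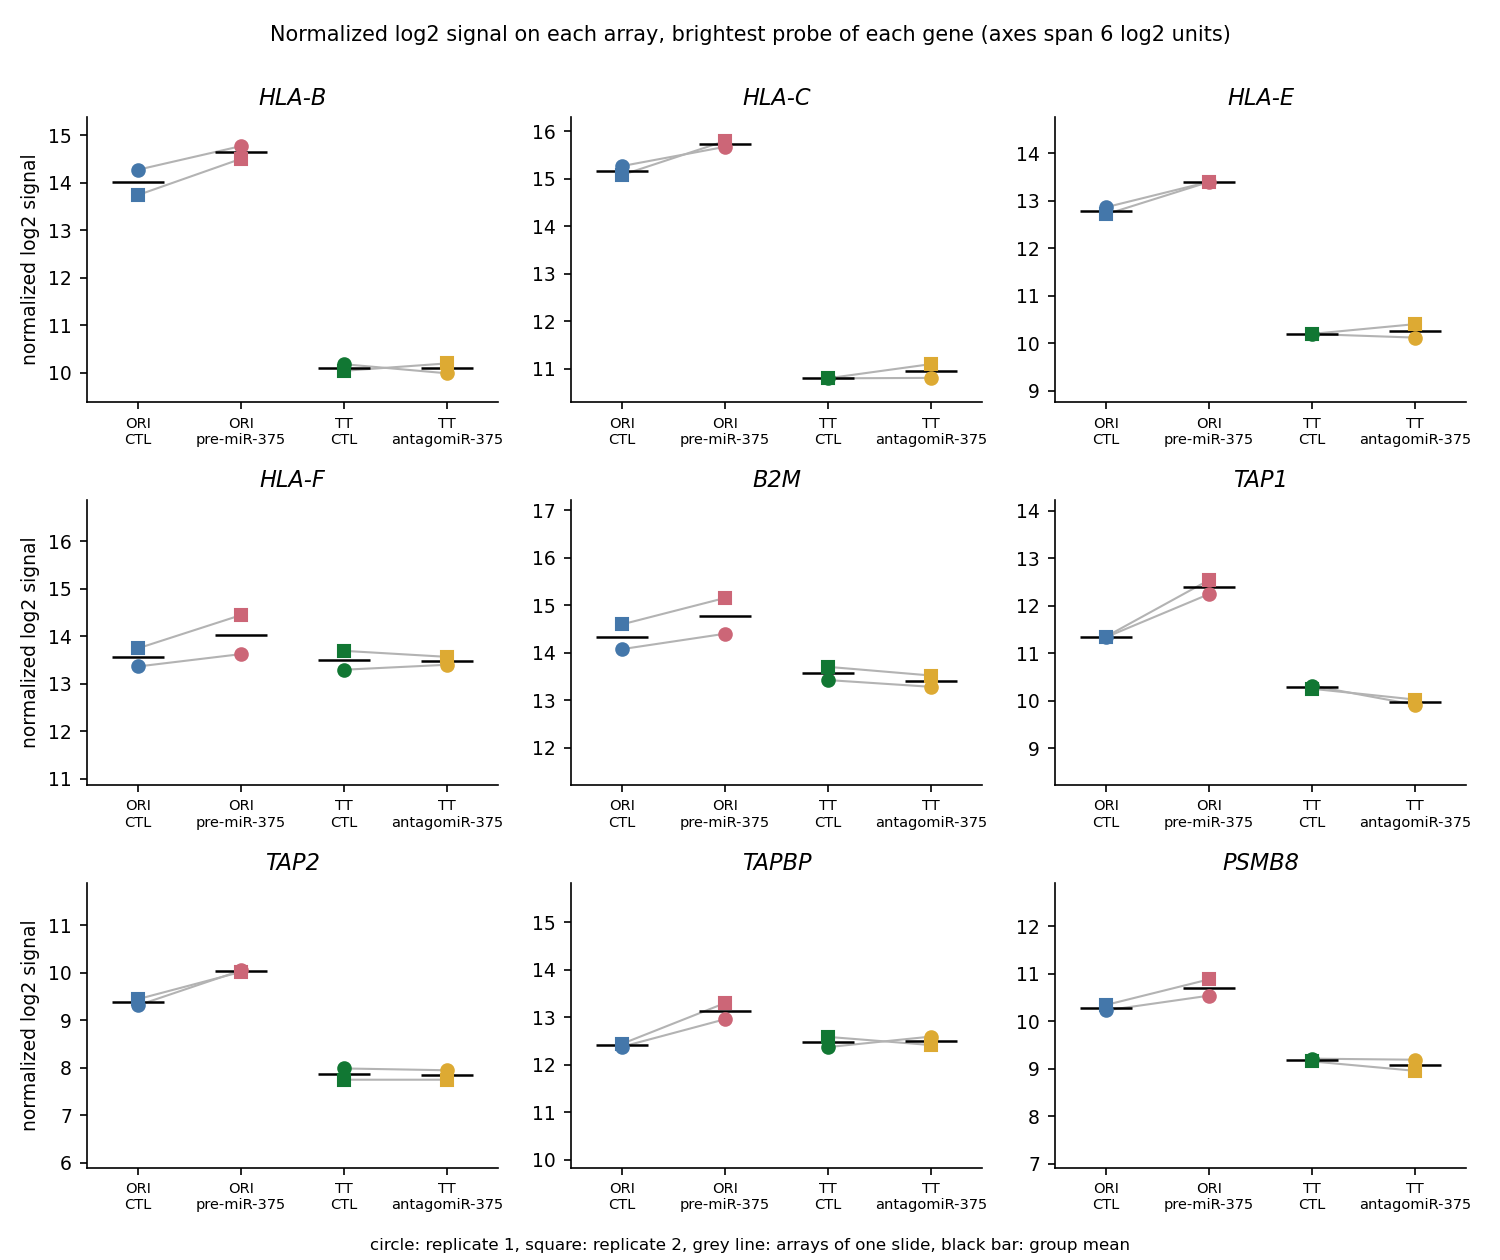
Normalized log2 signal (y axis) of the brightest probe of each of the 9 genes on each of the 8 arrays, by group (x axis), with circles for replicate 1, squares for replicate 2, grey lines joining arrays of the same slide and black bars for group means. In Nthy-ori 3-1 cells every line goes up, from 11.34 and 11.35 to 12.24 and 12.54 for TAP1, while the lines of TT cells stay nearly level.

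Of the heavy chains, which hold the peptide, HLA-B read 14.28 and 13.74 on the control arrays and 14.77 and 14.51 on the pre-miR-375 arrays (probe A_33_P3424800, normalized log2 signal). Both treated arrays were above both control arrays, and the log2 difference was 0.63 (standard error 0.123, adjusted p = 0.33 from limma), a 1.55-fold higher signal. The overlapping HLA-B probe A_33_P3379947 read 14.34 and 14.04 against 14.85 and 14.78, again a log2 difference of 0.63. A dimmer HLA-B probe, A_33_P3399208, whose position the array design gives as unmapped, read 6.95 and 7.97 against 7.39 and 8.41. Its groups overlapped, the second slide being brighter for both, and its differences within the pairs were both 0.44.

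HLA-C read 14.96 and 14.75 on the control arrays and 15.40 and 15.49 on the pre-miR-375 arrays (A_33_P3330109), with no overlap. The log2 difference was 0.59 (standard error 0.132, adjusted p = 0.343 from limma), and for the probe on the HLA-B stretch 0.56. HLA-E, a non-classical heavy chain that presents leader peptides to natural killer cell receptors, read 12.87 and 12.72 against 13.40 on both treated arrays, to 2 decimals. Its log2 difference was 0.61 (standard error 0.0951, adjusted p = 0.318 from limma). The 2 HLA-F probes, of another non-classical heavy chain, were higher by 0.48 and 0.28. The brighter one read 13.36 and 13.74 against 13.62 and 14.44, so that its groups overlapped, and its difference was 0.26 in the first pair and 0.70 in the second.

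B2M, the light chain that every class I heavy chain needs, was read by 10 spots per array. It stood at 14.08 and 14.60 on the control arrays and at 14.40 and 15.16 on the pre-miR-375 arrays. The groups overlapped because the second slide was brighter for both, while within the pairs the differences were 0.32 and 0.56, and 0.44 in the fit (standard error 0.114, adjusted p = 0.367 from limma).

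The peptide transporter genes come next, and TAP1 had the largest difference of the 15 probes. TAP1 read 11.34 and 11.35 on the control arrays and 12.24 and 12.54 on the pre-miR-375 arrays, with no overlap. The log2 difference was 1.05 (standard error 0.128, adjusted p = 0.318 from limma), a 2.07-fold higher signal. TAP2 read 9.31 and 9.44 against 10.04 and 10.01, a difference of 0.65 (standard error 0.098, adjusted p = 0.318 from limma). A second TAP2 probe was not well above background on any of the 8 arrays.

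TAPBP, the loading chaperone, had 3 probes well above background on all arrays. The brightest read 12.38 and 12.44 on the control arrays and 12.96 and 13.29 on the pre-miR-375 arrays, a log2 difference of 0.72 (standard error 0.127, and 0.324 as the adjusted p from limma). The other probes differed by 0.55 each, although the signal of A_33_P3325914 overlapped between groups (9.49 and 8.88 against 10.04 and 9.44). The fourth TAPBP probe was well above background on 1 of 8 arrays and carries no fold here. PSMB8, the immunoproteasome subunit, read 10.23 and 10.34 against 10.54 and 10.88, a difference of 0.42 (standard error 0.114, adjusted p = 0.373 from limma), with no overlap.

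The pairs agreed in direction but not in size. The median over the 15 probes was 0.50 in the first pair and 0.68 in the second, and the second pair had the larger difference for 13 of 15, whereas over all bright probes the medians were 0.04 and 0.01. In 6 bands of average signal, the median of all probes lay between 0.0001 and 0.0456. Of 4 bright thyroid follicular markers, the line's own type, 0 were higher in both pairs and 2 lower, against 38.7% and 33.9% of all probes. The 2 were PAX8 (-0.30) and FOXE1 (-0.35), and the list median was -0.21. Markers of other cell types differed with pre-miR-375 as well. Of the 7 C cell markers, CALCA, CHGA, SYP and SCG2 were not well above background on either control array and were so on both pre-miR-375 arrays, which took the number of markers well above background from 1 to 5. With pre-miR-375 they read 8.12 and 4.51, 4.91 and 5.13, 5.49 and 6.15, and 6.72 and 8.42, CALCA being far apart between the 2 arrays. The summed signal of all 7 C cell markers was 118 to 131 on the control arrays and 534 to 541 on the pre-miR-375 arrays. On the TT arrays it was 491700 to 548000. CEACAM5 was not well above background on any of the 4 control and pre-miR-375 arrays. Among leukocyte markers the summed signal was 483 to 757 and 984 to 990, and the 4 markers bright on all 4 arrays split, with log2 differences of 0.97 for CD14 and 0.13 for PTPRC, -0.25 for ITGAM, which was lower in both pairs, and CD3E in opposite directions in its pairs. Among 6 fibroblast and endothelial markers it was 10860 to 19130 and 26730 to 29250, with 2 of 6 well above background, COL1A1 with a log2 difference of 0.96 and VWF with one of -0.32. The part of these lists in the members' difference was not tested.

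**Figure D2:**
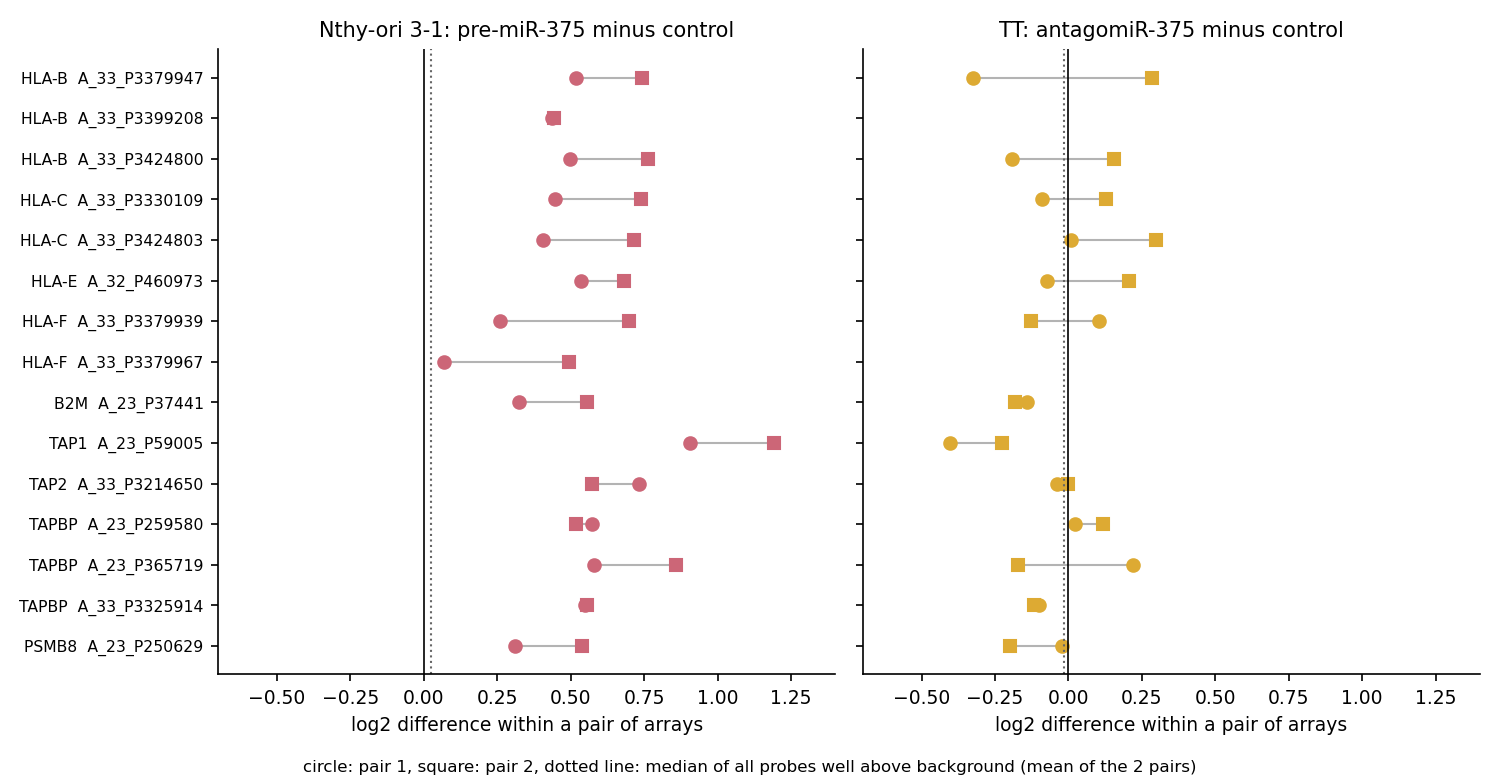
Log2 difference within each pair of arrays (x axis) for the member probes well above background on the 4 arrays of Nthy-ori 3-1 cells (y axis), with circles for pair 1 and squares for pair 2, and dotted lines for the median of all bright probes. In Nthy-ori 3-1 cells (left) all points lie between 0.07 and 1.19, and in TT cells (right), where 13 of the probes are bright, they lie between -0.40 and 0.30.

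With normexp background correction in place of the background-subtracted signal, limma called 1 of the 17 probes, TAP1 (log2 difference 1.05, adjusted p = 0.0383), and 3.08% of all probes. TAP1 stayed over 0.05 in the other 11 alternatives, where its adjusted p went up to 0.583.

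In TT cells given the inhibitor, the 9 genes differed little from the control and in both directions. Over the 13 probes well above background on the 4 TT arrays the log2 differences between antagomiR-375 and control ran from -0.31 to 0.15, with a median of -0.02, as against -0.01 over all 27241 such probes. Of the 13, 2 were higher in both pairs (30.5% of all probes) and 5 were lower in both (34.4%). An unadjusted p under 0.05 was reached by 0 of the 13, against 10.4% of all probes, and limma called 0 of 50587 probes after adjustment (0%), with 4920 at an unadjusted p under 0.05. Over all 17 member probes it was reached by 1, the dim HLA-F probe A_33_P3379967 (unadjusted p = 0.00847 from limma), whose control level is only a bound.

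TAP1 had the lowest value here. It read 10.31 and 10.25 without and 9.91 and 10.02 with antagomiR-375, with no overlap and a log2 difference of -0.31 (standard error 0.102, adjusted p = 0.531 from limma). B2M read 13.43 and 13.70 against 13.28 and 13.52, a difference of -0.16. Its groups overlapped. HLA-B (A_33_P3424800) read 10.18 and 10.04 against 9.99 and 10.20. HLA-C (A_33_P3330109) read 10.07 and 10.04 against 9.98 and 10.17, and HLA-E 10.20 on both control arrays against 10.12 and 10.41. For these probes the groups overlapped and the pairs took opposite directions. The HLA-C probe on the HLA-B stretch, A_33_P3424803, read 10.80 on both control arrays against 10.81 and 11.10, higher in both pairs and without overlap, with a log2 difference of 0.15 that was not called. The brightest TAPBP probe overlapped with pairs in opposite directions too, at 12.37 and 12.58 against 12.59 and 12.41, while PSMB8 read 9.21 and 9.15 against 9.19 and 8.95.

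The HLA-F probes read differently here. A_33_P3379967 was not well above background on either TT control array (2.95 and 3.46) and was so on both antagomiR-375 arrays (4.42 and 4.63). Each control array was set to the lowest signal well above background on it, or to the probe's own signal where that was larger. Against these values the probe was at least 2.04-fold higher, with an adjusted p of 0.512 from limma. The brighter HLA-F probe read 13.29 and 13.69 against 13.40 and 13.56. RNA integrity differed between the groups of this comparison, and its part in it was not tested.

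A test of the difference between the 2 treatment effects, fitted on all 8 arrays with the slide as a block, asked only whether the measured differences were unequal, since reagents and lines both differ. Over the 13 probes bright on all arrays the effect in Nthy-ori 3-1 cells exceeded that in TT cells by 0.41 to 1.36 on the log2 scale, with a median of 0.60, as against 0.04 over all 22190 such probes. The gap was widest for TAP1 (1.36, standard error 0.178, adjusted p = 0.151 from limma). For the dim HLA-F probe A_33_P3379967 the TT control level is only a bound, and no difference of effects is given. Limma called 0 of 50582 probes (0%), with 8405 at an unadjusted p under 0.05.

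The levels of the lines themselves lay further apart. Between control cells, 10 of the 17 probes, from 7 of the 9 genes, were called lower in TT than in Nthy-ori 3-1 cells by limma (adjusted p up to 0.05), against 12.8% of all 50584 probes. None was higher, against 12.9%. The median over the 13 probes bright on all arrays was -1.10, as against -0.12 over all 22191 such probes. By the probes bright on all arrays, HLA-B and HLA-C were lower by 3.90 to 4.91 on the log2 scale, HLA-E by 2.59, and TAP2, PSMB8 and TAP1 by 1.06 to 1.51. The dim HLA-B probe A_33_P3399208, well above background on 1 of 2 TT control arrays, read 4.06 and 4.71 there against 6.95 and 7.97.

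**Figure D3:**
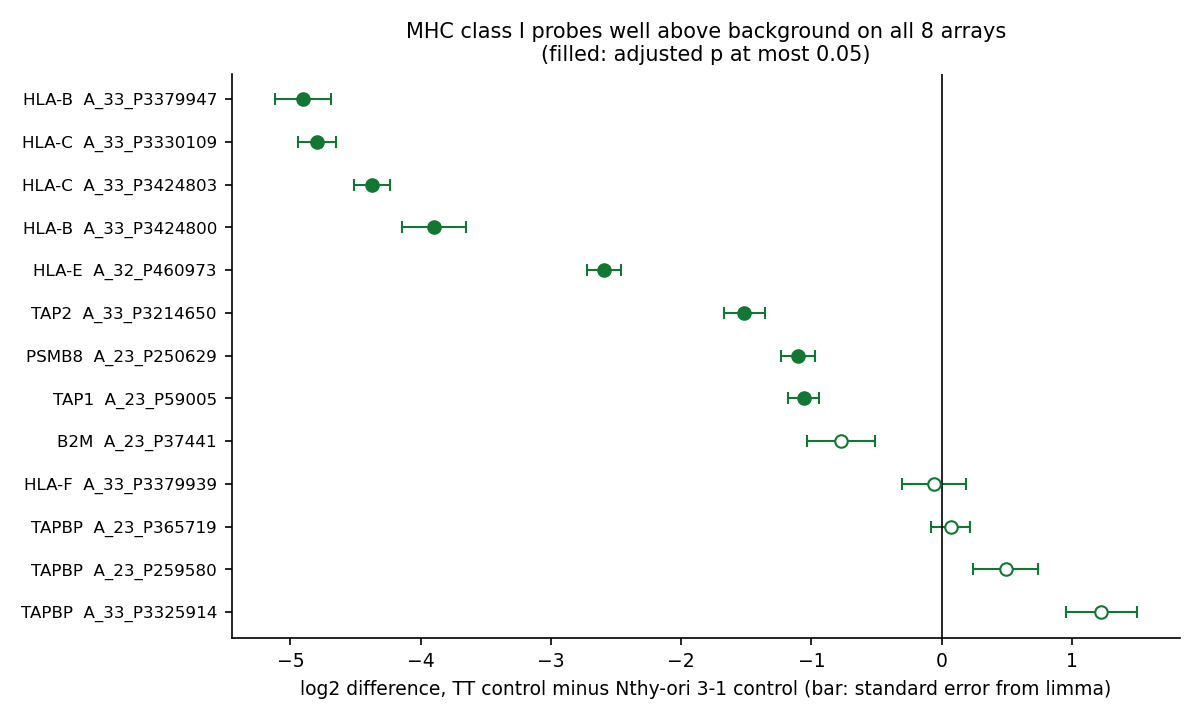
Log2 difference between TT and Nthy-ori 3-1 control cells (x axis, mean of 2 arrays per line, bars for the standard error from limma) for the 13 member probes well above background on all 8 arrays (y axis), filled where the adjusted p was at most 0.05. HLA-B, HLA-C and HLA-E lie furthest to the left, and the 3 TAPBP probes lie at or above 0.

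HLA-C (A_33_P3330109) stood at 14.96 and 14.75 in Nthy-ori 3-1 and at 10.07 and 10.04 in TT control cells, a 27.8-fold lower signal (log2 difference -4.80, standard error 0.144, adjusted p = 0.00177 from limma). HLA-B was 14.9-fold lower by A_33_P3424800 (14.28 and 13.74 against 10.18 and 10.04). By the overlapping A_33_P3379947 (14.34 and 14.04 against 9.46 and 9.11) it was lower by 4.91 on the log2 scale. The 2 HLA-B probes differ by the base shown above, and sequence variation between the lines under a probe was not examined. HLA-E was 6.04-fold lower (12.87 and 12.72 against 10.20 on both arrays, adjusted p = 0.00382 from limma).

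TAP2 was 2.86-fold lower in TT cells, at 7.98 and 7.74 against 9.31 and 9.44 (adjusted p = 0.0135 from limma). PSMB8 was 2.15-fold lower, at 9.21 and 9.15 against 10.23 and 10.34, and TAP1 2.09-fold lower, at 10.31 and 10.25 against 11.34 and 11.35 (adjusted p = 0.0164 and 0.0158 from limma). In none of these genes did the arrays of the lines overlap.

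HLA-F gave different readings by its probes. The dimmer probe A_33_P3379967 (chr6:29692114-29692173, hg19, plus strand) was at least 13.7-fold lower in TT control cells, where it was not well above background, than in Nthy-ori 3-1 cells, at 7.43 and 7.11 (adjusted p = 0.00589 from limma). The brighter probe A_33_P3379939 (chr6:29693280-29693338) did not differ beyond the replicates, at 13.29 and 13.69 against 13.36 and 13.74 (log2 difference -0.06, standard error 0.246). Both sequences are shown because the readings of the gene depend on them.

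HLA-F A_33_P3379939: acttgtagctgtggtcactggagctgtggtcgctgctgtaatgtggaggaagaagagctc

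HLA-F A_33_P3379967: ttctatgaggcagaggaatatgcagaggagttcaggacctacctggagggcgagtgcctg

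The 2 probes do not overlap by position. Which other heavy chain transcripts they bind was not tested.

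B2M and TAPBP were not called. B2M read 13.43 and 13.70 in TT against 14.08 and 14.60 in Nthy-ori 3-1 control cells, with no overlap and a log2 difference of -0.77 (standard error 0.26, adjusted p = 0.138 from limma). With the deposited log2 values it was called, at -1.05 (adjusted p = 0.013 from limma), but the median of all probes was then -0.31, against -0.05 here, a shift of the whole comparison towards lower values in TT. Over all alternatives the B2M difference ran from -1.05 to -0.51, the latter without replicate 2 of the Nthy-ori 3-1 control. The 3 bright TAPBP probes differed by 0.07, 0.49 and 1.23, the last with an adjusted p of 0.0612 from limma. It read 10.48 and 10.34 in TT and 9.49 and 8.88 in Nthy-ori 3-1 cells, and with all 8 arrays and the slide as a random block its adjusted p was 0.0157. In 6 of the alternatives, this one among them, 1 member probe was called higher in TT.

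How firmly these calls stand depends on single control arrays. Without replicate 1 of the TT control limma called 0 of the 17 probes and 0% of all, with 10 of the 17 at an unadjusted p under 0.05, and without replicate 2 of the TT control it called 2, with 3.13% of all. Without replicate 2 of the Nthy-ori 3-1 control it called 6, with 20.5% of all, and without replicate 1 it called 11, of which 10 were lower in TT, with 22.6% of all. The log2 difference of HLA-C (A_33_P3330109) stayed between -5.10 and -4.69 over all alternatives. With all 8 arrays and the slide as a random block, the adjusted p of the 10 probes ran from 2.6e-05 to 0.00825. With the TT arrays given antagomiR-375 in place of the TT controls, a choice made after seeing the data that sets equal RNA integrity numbers of 9 against each other, 10 probes were called, with 25.8% of all as in the comparison of the controls, and TAP1 was lower by 1.37 on the log2 scale.

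Other genes of the pathway were described from lists that were set with earlier results of these data known. In Nthy-ori 3-1 cells given the precursor, 6 of 7 bright heavy chains or related chains outside the 9 genes were higher in both pairs, with a median log2 difference of 0.53. MICA and MICB, stress-induced ligands of the NKG2D receptor, had the largest values, 1.19 and 1.15. HLA-G, a non-classical heavy chain, read 15.12 and 15.16 against 15.57 and 15.77, a difference of 0.53. Of 8 trimming and loading genes, among them the peptidase ERAP1 (0.51), 7 were higher in both pairs, with a median of 0.31.

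The other immunoproteasome subunits split. PSMB9, whose start lies 488 bases from that of TAP1 and faces away from it (RefSeq, GRCh38.p14), read 11.41 and 10.90 on the control arrays and 12.36 and 12.38 with pre-miR-375, a log2 difference of 1.21 (standard error 0.206, adjusted p = 0.322 from limma). PSMB10 read 13.54 and 13.13 against 12.60 and 12.05, a difference of -1.003 (standard error 0.0938, limma adjusted p = 0.318), the lowest of the listed genes named here. In TT cells given antagomiR-375 PSMB10 differed by 0.37 (adjusted p = 0.512 from limma). The standard subunits PSMB5, PSMB6 and PSMB7 differed by 0.14 to 0.35.

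Of the 10 bright transcription factors of class I genes, 4 were higher and 3 lower in both pairs, with a median of -0.05. NLRC5, the class I transactivator, was among the 4 (0.69), at 6.95 and 7.12 against 7.95 and 7.505. Interferon-stimulated reference genes were higher in both pairs for 11 of 16, with a median of 0.35, and receptor and signalling genes for 6 of 10, with a difference of -0.53 for IFNAR1. The genes IFNB1 and IFNG were not well above background on any array. Of 6 bright MHC class II genes 5 were higher in both pairs, while HLA-DPB1 differed by -0.40. None of these genes was called after adjustment, and the share of all probes higher in both pairs, 38.7%, is the value to set beside each count.

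**Figure D4:**
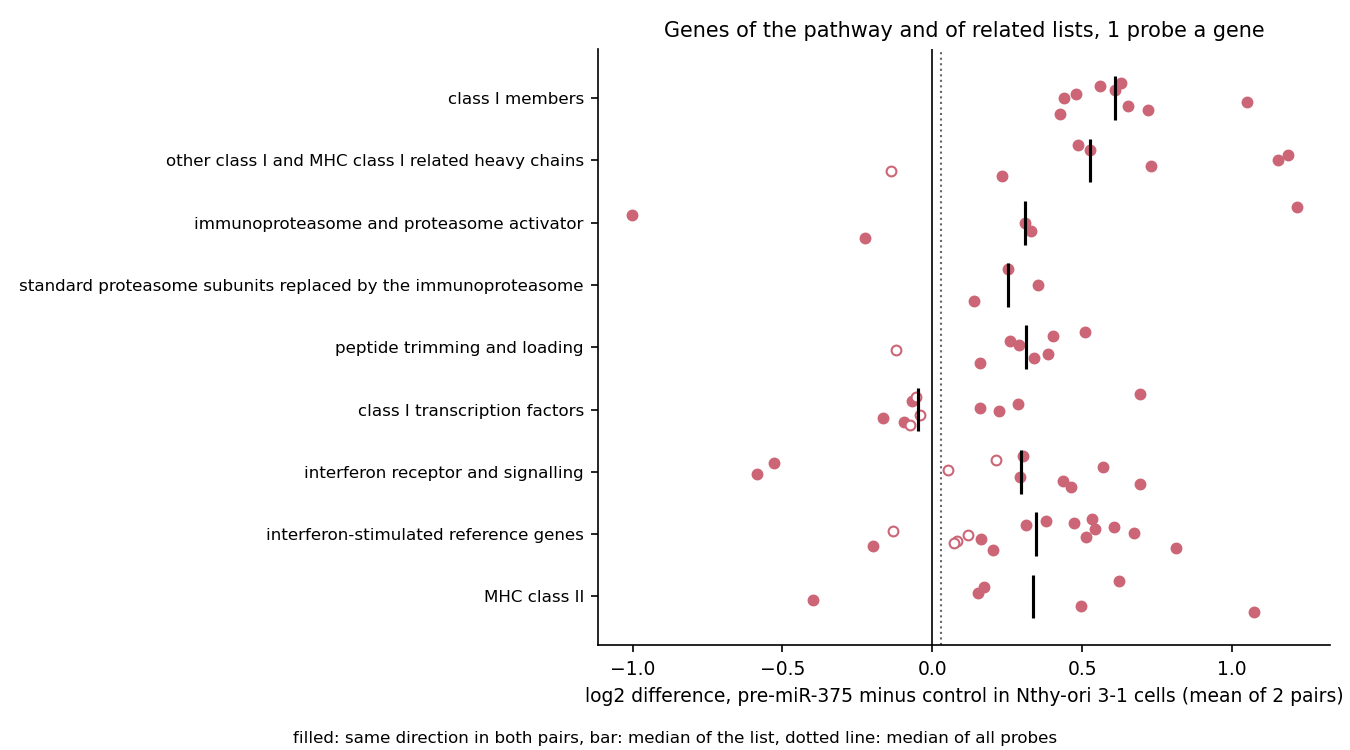
Log2 difference between pre-miR-375 and control in Nthy-ori 3-1 cells (x axis, mean of 2 pairs) for genes well above background on the 4 arrays, by list (y axis, marker lists left out), filled where both pairs had the same direction, with bars for list medians and a dotted line for the median of all bright probes. The 9 members lie between 0.42 and 1.05, and the transcription factors have the single median below 0 among the lists drawn, at -0.05.

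In TT cells with antagomiR-375, listed genes were ranked at an average log2 signal of at least 6, with the marker lists left out. The largest differences in each direction were as follows. IFI27 differed by 1.58 (0.76 in the first pair and 2.40 in the second), IRF1 by 0.74 and ISG15 by 0.63, whereas IFIT1 differed by -0.73, HLA-DMA by -0.61 and IFIH1 by -0.52, and none was called. Of 11 bright interferon-stimulated genes 5 were higher and 4 lower in both pairs, against 30.5% and 34.4% of all probes. IRF1, a factor that drives class I promoters, read 5.97 and 5.68 against 6.67 and 6.46, with no overlap.

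Between the control cells, MICA and MICB were among the pathway genes lower in TT. MICB was at least 311-fold lower in TT, where it was not well above background (2.06 and 1.95 against 11.73 and 11.63). MICA, well above background on 1 of 2 TT control arrays, read 2.08 and 4.18 against 12.51 and 12.36. HLA-G was lower by 0.65 (adjusted p = 0.0406 from limma). The class II peptide exchange gene HLA-DMB, the peptidase ERAP2 and MR1, which presents vitamin metabolites, were higher in TT by 3.002, 2.74 and 1.71, each at an adjusted p of at most 0.0229. HLA-DPB1, well above background on 1 of 2 TT control arrays, read 3.60 and 4.41 against 9.74 and 9.69, and 9 of 18 interferon-stimulated genes were called lower and none higher, against 12.8% and 12.9% of all probes.

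All members but B2M lie in the MHC region of chromosome 6, and their neighbours there are given for comparison. Of 196 other bright probes between the outermost members (chr6:29692114-33281029, hg19), 45.9% were higher in both pairs in Nthy-ori 3-1 cells given the precursor, with a median of 0.06. Of 278 other probes there, 15.1% were lower and 6.12% higher in TT control cells by the same call.

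The mean profile of the 9 genes, each centred on its own mean, was 0.69 and 0.73 in Nthy-ori 3-1 control cells, 1.19 and 1.46 with pre-miR-375, and from -1.08 to -0.97 on the 4 TT arrays. Over 17005 other genes bright on all 8 arrays, the 5 nearest to it by root mean square distance were TNFAIP1, C7orf23, DHRS7B, GPAM and LIMD2, at 0.102 to 0.128 log2 units. None of the 5 genes lies on chromosome 6. In the mean profile every Nthy-ori 3-1 array lay above every TT array.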

How the data were processed

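RNA of 8 samples (total RNA by the methods, polyA by the labels) was hybridised to one-colour Agilent arrays. The authors deposited the Feature Extraction 10.10.1.1 output, with a background-subtracted intensity per spot that is not normalized between arrays and probe positions in hg19. They also deposited log2 values, used here as an alternative, which the paper's methods describe as quantile normalized with limma, without the signal used or whether the lines were normalized together. Their medians were 6.49 on each Nthy-ori 3-1 array and 6.23 to 6.24 on the TT arrays, and each column correlated with the log2 median spot signal of its own array (lowest r 0.9978), so they appear normalized within each line.

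Per probe, log2 intensity was averaged over spots, without control spots and outlier spots (341 to 428 per array), and quantile normalization was run over the 8 arrays (limma 3.58.1, R 4.3.3). No dim probe was dropped. Each line was fitted with the replicate number as a block (1 residual degree of freedom), because equal numbers share a slide; the replicate differences of treated and control arrays correlated with r = 0.785 in Nthy-ori 3-1 and 0.33 in TT cells. Control cells were compared without a block (2 degrees of freedom). A probe was called at a Benjamini-Hochberg adjusted p of at most 0.05 over all probes. The fits were tested on simulated data.

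Every member is named, and the brightest probe stands for a gene. Of 76 genes in other lists, 74 of them matched by symbol, the 3 largest rises and falls of each comparison at an average log2 signal of at least 6 are named, and further listed genes and markers were chosen after their values were seen. Members and lists were chosen with earlier results of these data known. Alternatives were another background correction, signal, scaling, filter, spread model or block, and arrays left out in turn.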

Additional observations from a re-analysis of the deposited data

How the results depend on the processing

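In Nthy-ori 3-1 cells given pre-miR-375, 13 of the 13 probes bright on all arrays stayed higher under each alternative run, and none of 120 alternative values of the 10 followed probes changed sign. The count of called member probes was 0 except with normexp background correction, where it was 1, TAP1. With no replicate block, or with both lines fitted together with a replicate block, it was 0 in each line. With 75th percentile scaling 2 of 17 member probes had an unadjusted p under 0.05, against 11. In TT cells 8 of 120 values changed sign. HLA-E was -0.0031 with the median signal and -0.0067 with the deposited values, and TAPBP -0.0006 with 75th percentile scaling. With a replicate left out in turn, HLA-B ran from -0.191 to 0.155, HLA-C (A_33_P3330109) from -0.0914 to 0.129, HLA-E from -0.0742 to 0.205, HLA-F from -0.126 to 0.104 and TAPBP from -0.172 to 0.221. Between control cells 5 of 130 values changed sign. TAPBP was -0.0203 with 75th percentile scaling and -0.244 with the deposited values, and with a control array left out in turn it ran from -0.0389 to 0.176 and HLA-F from -0.26 to 0.137. With a control array left out the called member probes ran from 0 to 11 and those lower in TT from 0 to 10. Where an array was left out, the lone array is assumed to vary like the others. The causes of these differences were not tested.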
